A study of Mus musculus with 6 samples.

Results

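The 93 genes described here were lower in every DM library than in every WT library of mouse bone marrow progenitor cultures, and 15 of them encode granule and other host defence proteins, the largest of the differences being those of Arg1 and Plac8. They were chosen on that contrast. A gene qualified when its mean over the 6 libraries was at least 3 on the deposited log2 scale, its DM mean lay at least 0.8 below its WT mean, and its highest DM value lay under its lowest WT value. Of 55487 genes in the table, 18766 had a mean of at least 3, and 108 of these met the thresholds, which is 0.576% of the genes with that mean. Of the 108, 15 were set aside by name, among them the myeloid granule genes Mpo, Elane, Prtn3, Fcnb, Epx, Prg2 and Prg3, and 93 remained. Because the same values chose the genes, the differences between DM and WT are given for them as a description and without a test.

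The libraries came from cKIT+ mouse bone marrow cells, a population that holds haematopoietic stem and progenitor cells. Cells were transduced with lentivirus to overexpress wild-type MLLT3 (WT, n = 3) or MLLT3 carrying K63E and K67E (DM, n = 3), sorted, and grown for 8 days in methylcellulose. The medium of both groups held mFlt3L at 10 ng/mL, the interleukins mIL-3, mIL-6 and mIL-11 as well as mSCF, mGMCSF, hEPO and hTPO at 20 ng/mL each, gentamycin, and 4-hydroxytamoxifen at 200 nM to delete the endogenous Mllt3, so that the WT libraries were also from cells treated to lose that gene. MLLT3 is a chromatin reader: its YEATS domain recognises acylated histone tails, and the protein is part of complexes that promote transcription elongation. The labels put all 6 libraries in batch 1, and nothing in them says that replicates came from separate animals or cultures, so spreads and p-values describe these libraries only. Mllt3 itself read 12.87, 12.6 and 12.44 in WT and 12.44, 12.03 and 11.99 in DM, a difference of -0.48, and whether these values include RNA from the vector was not tested. The values are regularized log (rlog) values, which shrink the differences of weakly measured genes, and the depth of the libraries is unknown. In bulk RNA of this kind, fewer cells of a type and less RNA per cell cannot be told apart.

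Neutrophils are built in a fixed order in the marrow. Promyelocytes fill primary (azurophil) granules with peroxidase and serine proteases, myelocytes and metamyelocytes then fill specific granules with lactoferrin and cathelicidin, and later stages add gelatinase granules and the abundant cytosolic calprotectin. The transcription factors C/EBPα, C/EBPε, GFI1, PU.1 and RUNX1 are known to act in this sequence, GFI1 and C/EBPε at the step to specific granules.

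The Kit transcript, which encodes the receptor used to select the cells, was present in all libraries, at 14.58, 14.32 and 14.29 in WT and 14.9, 14.3 and 14.59 in DM. Markers of other cells were summed on the linear scale and are given as log2. The 10 neutrophil markers summed to between 18.52 and 18.98 in WT and between 17.01 and 17.88 in DM, but 8 of them met the thresholds above, so this order was partly chosen. Without those 8 the sums were 15.31 to 15.53 and 14.72 to 15.11. Monocyte and macrophage markers, of which 9 of 10 had a mean of at least 3 and C1qa did not, summed to 15.59 to 16.2 in WT and 16.54 to 16.89 in DM. Mast cell markers, all 10 measured, ran from 18.91 to 19.3 and from 19.08 to 19.49, and megakaryocyte markers from 14.22 to 14.48 and from 14.5 to 14.88. Eosinophil markers summed to 15.17 to 15.28 in WT and 13.97 to 14.43 in DM, and to 12.05 to 12.37 and 12.14 to 12.4 without the 3 that met the thresholds. B cell markers, 4 of 7 of them with a mean of at least 3, summed to 6.41 to 6.58 in WT and 6.28 to 6.31 in DM. The highest B cell marker, Cd79b, had means of only 5.11 in WT and 4.84 in DM. Of the T and NK cell markers 6 of 8 had a mean under 3, Cd3e among them. Their sums were 5.61 to 5.79 and 5.59 to 5.62. Erythroid markers, 7 of 10 of them with a mean of at least 3, summed to 9.2 to 10.15 in WT and 9.03 to 9.42 in DM, dendritic cell markers (5 of 8) to 9.45 to 9.79 and 9.91 to 10.09, and stromal and endothelial markers (6 of 8) to 12.62 to 12.77 and 12.58 to 12.82. The part of these cell types in the differences below was not tested.

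The 93 genes differed between the groups by -0.8 to -2.25, with a median of -1.08 and quartiles of -1.28 and -0.93. A difference of at most -1, which is a 2-fold lower value, was reached by 54 of them, and one of at most -1.5 by 13. Over all 18766 genes the median difference was 0.01 and the quartiles were -0.08 and 0.13, and 69 genes reached -1. By type, 90 were protein-coding in GENCODE M21, 1 was a lincRNA, 1 an antisense transcript and 1 an immunoglobulin constant gene. The members closest to the difference threshold were Dmkn at -0.82, Gm8113 at -0.81 and G0s2 at -0.8. Just outside were Ckap4 at -0.8, Hp at -0.8 and Hip1r at -0.79. The members whose groups came closest to overlapping were Akr1c18, with a gap of 0.1 between the highest DM and the lowest WT value, Ifitm6 with 0.13 and Padi4 with 0.2. Gm10801 at -0.92, Gm10800 at -0.86 and Gm21738 at -0.81 met the difference and were left out because their groups overlapped. The members with the lowest means were Nrg2 at 5.78, Amotl2 at 5.9 and Gm11505 at 5.95, so none lay close to the minimum of 3.

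**Figure D1:**
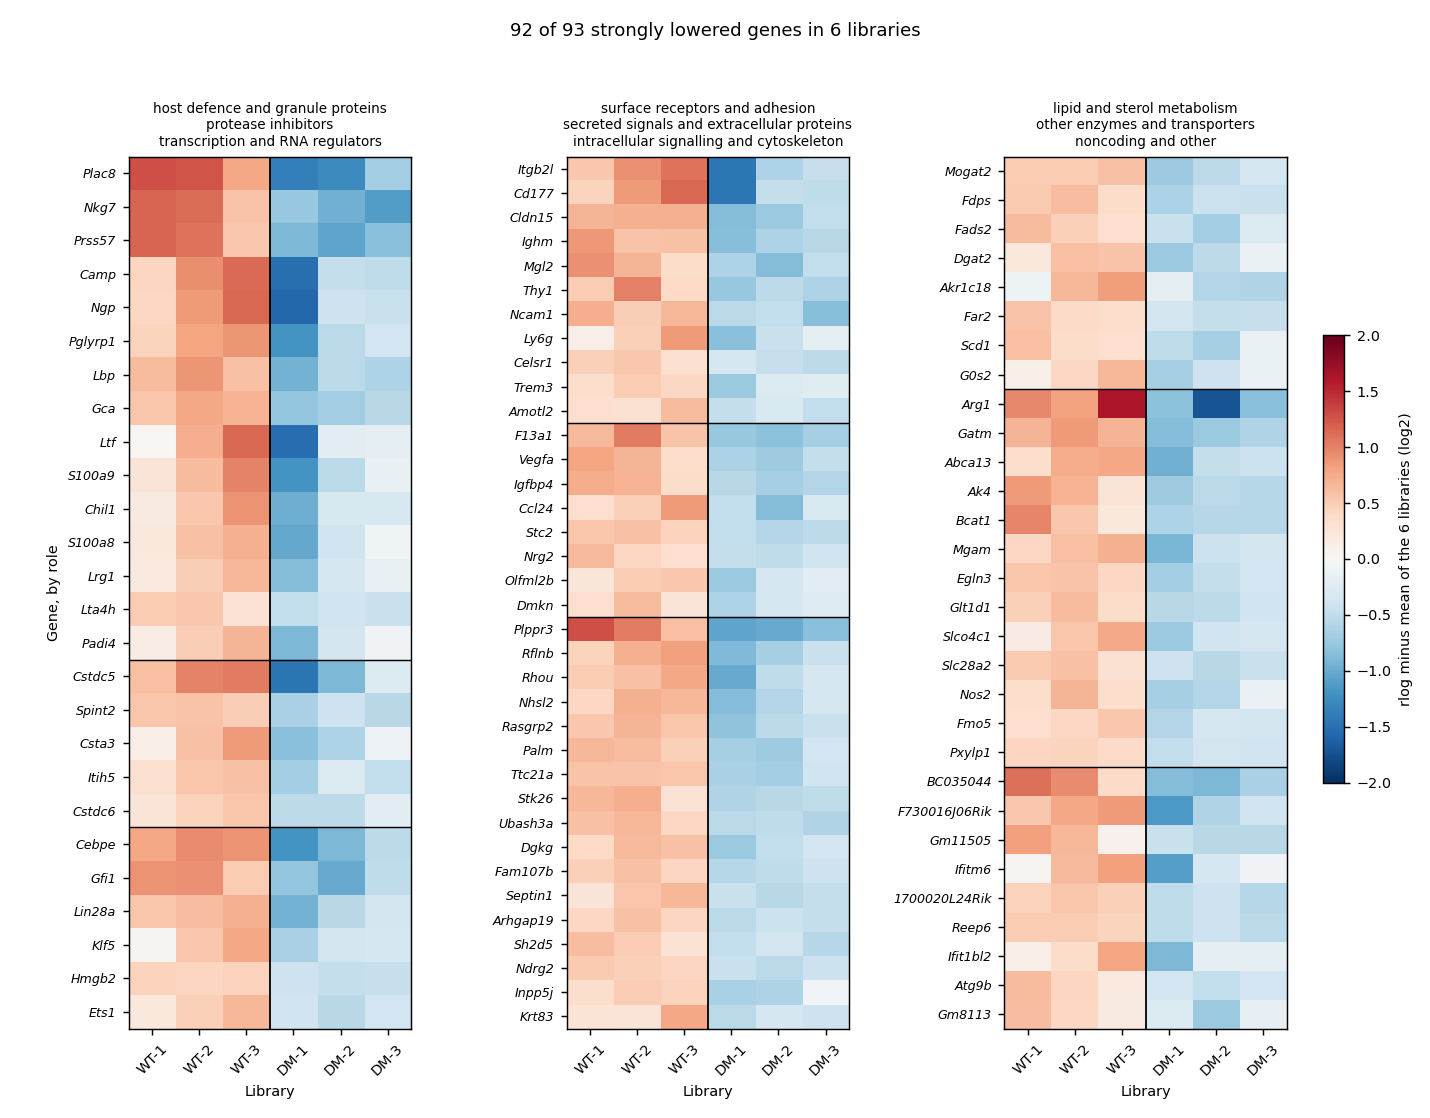
Each gene's rlog value minus its mean over the 6 libraries, in log2 units and coloured from -2 to 2, for 92 of the 93 genes sorted by role, with libraries as columns. In each gene every WT value lies above every DM value, as the choice of genes requires, while the shade differs among the libraries of a group.

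Promoter sequences show what surrounds the start sites of these genes. RefSeq promoter windows on GRCm38.p6 were found for 64 of the 93 genes, as 80 windows of 250 bases before a start site. For 65 of the 80, the bases after the start lay in an annotated transcript of the gene. For 4 letter strings both strands were searched there, and no matches of different strings overlapped. They were TTGCNNAA, a form of the C/EBP motif, GAGGAAGT, a form of the PU.1 motif, TGTGGTT, a form of the RUNX motif, and ACGTG, the core of the hypoxia response element. A match describes letters and not a bound factor. Some matches, such as that of Vegfa to ACGTG, stood in stretches of 60 bases wholly within annotated exons.

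The C/EBP string stood in 13 of the 80 windows (16.2%), belonging to 11 genes, against 9.57% of all 32817 promoter windows and 7.88% of the 15762 windows of tested genes. The genes were Ak4, Csta3, Cstdc5, Dmkn, Gfi1, Ltf, Ly6g, Ngp, Plac8, S100a9 and Ubash3a. Those shown are of genes described below, 5′ to 3′ on the strand of the gene, with the match in capitals, and Csta3, Cstdc5 and Gfi1 are cut to 30 bases. In Ltf the match is on the strand opposite to the gene and so reads TTGGGCAA.
Ltf, chr9:111019191-111019250, plus strand: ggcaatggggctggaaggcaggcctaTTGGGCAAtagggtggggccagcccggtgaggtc
Ngp, chr9:110419644-110419703, plus strand: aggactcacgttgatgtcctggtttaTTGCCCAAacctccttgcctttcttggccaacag
S100a9, chr3:90695912-90695971, minus strand: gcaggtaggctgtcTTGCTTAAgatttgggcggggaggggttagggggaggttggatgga
Csta3, chr16:36210236-36210265, plus strand: tgcagcaagacTTGCCTAAggacacactca
Cstdc5, chr16:36367640-36367669, minus strand: tgcagtaagacTTGCCTAAggccacactca
Gfi1, chr5:107725930-107725959, minus strand: cgaaggtaggtTTGCTGAActgctgtgcct
Csta3 and Cstdc5, 2 stefin genes of one cluster, have 28 of these 30 bases in common, match included. The Cstdc5 and Gfi1 stretches lie within exons annotated in GENCODE M21. Whether those exons belong to the same gene and strand was not tested.

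The PU.1 string stood in 6 windows (7.5%), of BC035044, Ifit1bl2, Itgb2l, Ly6g and S100a8, against 2.44% of all windows and 2.61% of those of tested genes. It is shown for a receptor gene and a calprotectin gene, in both on the strand opposite to the gene, so that it reads ACTTCCTC.
Itgb2l, chr16:96443638-96443697, minus strand: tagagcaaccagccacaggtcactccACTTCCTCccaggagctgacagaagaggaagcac
S100a8, chr3:90668873-90668932, plus strand: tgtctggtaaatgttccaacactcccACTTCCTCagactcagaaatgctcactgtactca
The RUNX string stood in 3 windows (3.75%), of Amotl2, Plac8 and Slco4c1, against 4.39% of all windows and 3.46% of those of tested genes. The hypoxia string stood in 13 windows (16.2%), against 16.6% and 20.7%. With matches on the strand of the gene alone, the share in the 80 windows exceeded that in all windows by 2.36 percentage points for the C/EBP string and 2.42 for the PU.1 string, against 6.68 and 5.06 with both strands. The RUNX difference turned from -0.644 to 0.199. With 80 windows these shares are imprecise, and windows of one gene can share bases. Cebpe and Prss57 were among the 29 genes with no window in the table used.

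Transcription and RNA regulators made up 6 of the 93 genes. Cebpe (ENSMUSG00000052435.7, chr14:54710360-54712174, minus strand) encodes C/EBPε, which drives the specific granule program, and read 10.47, 10.64 and 10.6 in WT and 8.51, 8.8 and 9.17 in DM. The means of Cebpe were 10.57 ± 0.0863 and 8.83 ± 0.33 (SD, n = 3 each), a difference of -1.74 or 3.34-fold. The WT libraries sat close together and the DM libraries were spread more widely, with DM replicate 1 the lowest. Gfi1 (chr5:107716657-107726036, minus strand) encodes a zinc-finger repressor needed for neutrophil differentiation and read 10.51, 10.52 and 10.12 in WT and 8.83, 8.6 and 9.1 in DM, a difference of -1.54. Here the lowest WT library was replicate 3 and the lowest DM library replicate 2. Lin28a, an RNA-binding protein known for blocking let-7 maturation in fetal and stem cells, read 9.14, 9.21 and 9.3 in WT and 7.64, 8.03 and 8.23 in DM (-1.25). The other 3 differed less. Klf5, a Krüppel-like factor, read 9.56, 10.05 and 10.29 in WT and 8.86, 9.14 and 9.16 in DM (-0.91), Hmgb2, a chromatin protein of dividing cells, read 13.21, 13.17 and 13.21 in WT and 12.34, 12.27 and 12.28 in DM (-0.9), and Ets1, the founding ETS factor, read 10.94, 11.21 and 11.4 in WT and 10.33, 10.18 and 10.35 in DM (-0.9). Hmgb2 stood out among the regulators for its tight replicates, with SDs of 0.0224 and 0.0406.

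**Figure D2:**
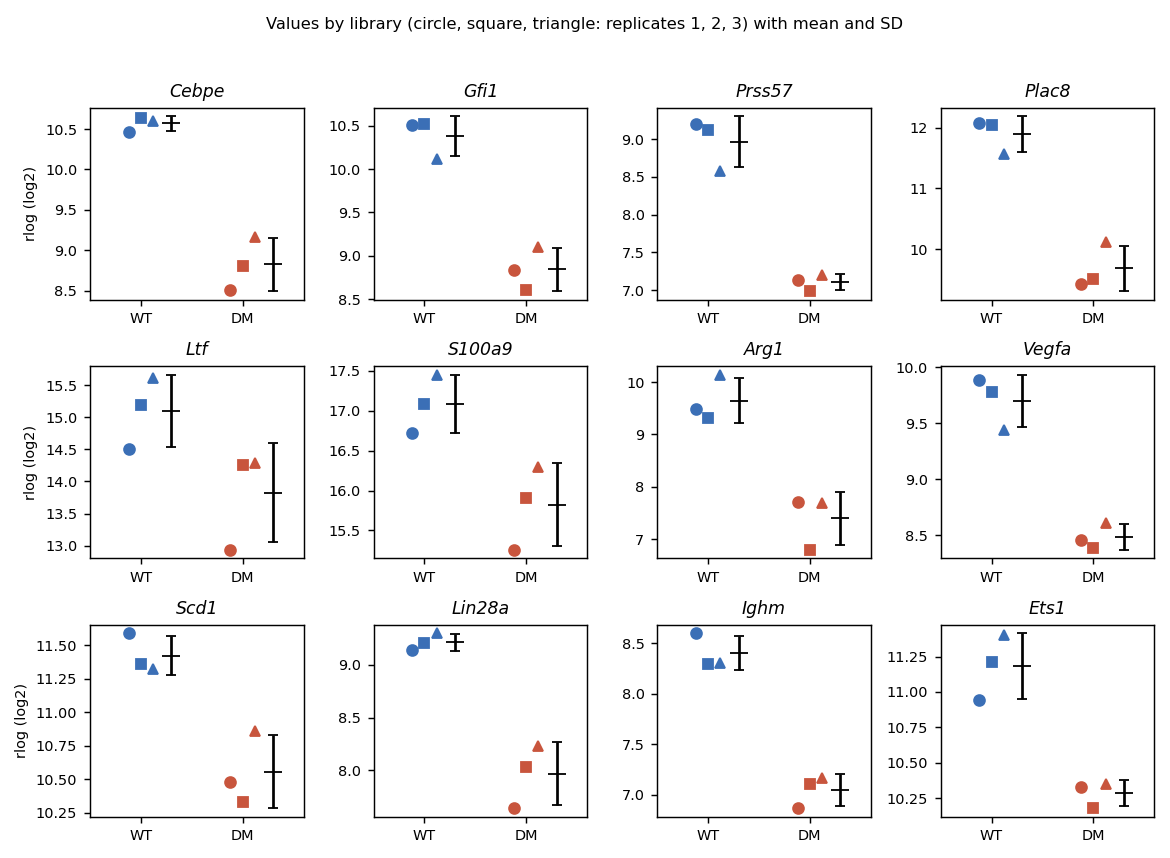
The rlog value (log2) of 12 genes in each library, with circles, squares and triangles for replicates 1, 2 and 3 and bars for the mean ± SD of the 3 libraries of a group. The groups do not overlap in any panel, as the choice of genes requires, and in Ltf and S100a9 the DM libraries come within 0.22 and 0.42 of the lowest WT library.

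Host defence and granule proteins were 15 of the 93 genes, with a median difference of -1.35. Several belong to the primary granules or to the progenitors that make them. Plac8 (chr5:100553725-100572245, minus strand), a small cysteine-rich protein of myeloid progenitors, read 12.08, 12.05 and 11.56 in WT and 9.43, 9.51 and 10.11 in DM, a difference of -2.21 or 4.64-fold. Nkg7, a membrane protein of cytotoxic and azurophil granules, read 8.92, 8.88 and 8.33 in WT and 7, 6.8 and 6.65 in DM (-1.89). Prss57 (chr10:79781474-79790961, minus strand), the azurophil granule protease NSP4, read 9.2, 9.12 and 8.58 in WT and 7.14, 6.99 and 7.2 in DM (-1.86). In each of these 3 genes WT replicate 3 was the lowest WT library and stood apart from the other two. Lta4h, the leukotriene A4 hydrolase that makes the chemoattractant LTB4, read 12.92, 12.96 and 12.71 in WT and 11.92, 12.02 and 11.97 in DM (-0.89).

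The specific granule genes showed another order of libraries. Camp (chr9:109847379-109849617, minus strand), the cathelicidin, read 12.02, 12.51 and 12.71 in WT and 10.08, 11.1 and 11.08 in DM (-1.66), and Ngp (chr9:110419747-110423012, plus strand), a cystatin-like granule protein, read 15.57, 16.01 and 16.31 in WT and 13.59, 14.74 and 14.71 in DM (-1.62). Ltf (chr9:111019271-111042767, plus strand), lactoferrin, read 14.5, 15.19 and 15.61 in WT and 12.94, 14.25 and 14.29 in DM (-1.28). In all 3 the lowest WT library was replicate 1, the highest WT library was replicate 3, and DM replicate 1 lay under the other DM libraries, by differences of -1.01, -1.14 and -1.33 from their mean. Ltf had the widest spread of them, with 15.1 ± 0.559 in WT and 13.82 ± 0.767 in DM (SD, n = 3 each), and only 0.22 separated its groups. Without DM replicate 1 the difference of Ltf was -0.83.

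S100a9 and S100a8 encode the 2 chains of calprotectin. S100a9 (chr3:90692632-90695721, minus strand) read 16.72, 17.09 and 17.45 in WT and 15.26, 15.91 and 16.3 in DM (-1.27), and S100a8 (chr3:90668978-90670035, plus strand) read 16.44, 16.8 and 16.93 in WT and 15.2, 15.82 and 16.14 in DM (-1). In both, DM replicate 1 was the lowest DM library and DM replicate 3 the highest. Pglyrp1, a peptidoglycan-binding protein of specific granules, read 12.36, 12.71 and 12.79 in WT and 10.72, 11.37 and 11.53 in DM (-1.42). Lbp, the lipopolysaccharide-binding protein, read 9.34, 9.59 and 9.3 in WT and 7.77, 8.17 and 8.1 in DM (-1.4), and Gca, the calcium-binding grancalcin, read 10.04, 10.26 and 10.17 in WT and 8.71, 8.78 and 8.93 in DM (-1.35). The remaining 3 were Chil1, a chitinase-like protein (-1.08), Lrg1, a leucine-rich glycoprotein of granules (-0.9), and Padi4, the histone-citrullinating enzyme of neutrophil extracellular traps (-0.88).

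Protease inhibitors were 5 genes, 3 of them in the stefin cluster of chromosome 16. Cstdc5 (ENSMUSG00000071561.2, chr16:36359382-36367748, minus strand) read 15.61, 16 and 16.06 in WT and 13.55, 14.12 and 14.74 in DM, a difference of -1.75 or 3.37-fold. Csta3 read 9.5, 9.94 and 10.22 in WT and 8.52, 8.75 and 9.24 in DM (-1.05), and Cstdc6 read 6.53, 6.73 and 6.82 in WT and 5.74, 5.75 and 6.04 in DM (-0.85). Stefins inhibit cysteine cathepsins inside the cell, and the mouse cluster holds near-identical copies, so the split of reads between them is uncertain. Spint2, a Kunitz inhibitor of serine proteases, read 9.6, 9.62 and 9.54 in WT and 8.4, 8.64 and 8.5 in DM (-1.08), with SDs of 0.0386 and 0.118. Itih5, an inter-alpha-trypsin inhibitor heavy chain, differed by -0.97.

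Surface receptors and adhesion molecules were 12 genes with a median difference of -1.27. Itgb2l, a β2-integrin-like chain of neutrophils, read 10.9, 11.28 and 11.46 in WT and 8.92, 9.75 and 9.9 in DM (-1.69). Cd177, the GPI-anchored neutrophil antigen that pairs with proteinase 3, read 13.07, 13.48 and 13.78 in WT and 11.18, 12.15 and 12.13 in DM (-1.62). Both followed the order of the specific granule genes, with replicate 1 lowest in each group. Cldn15, a claudin, read 8.78, 8.8 and 8.8 in WT and 7.23, 7.36 and 7.61 in DM (-1.39), and its WT libraries lay within 0.02 of each other. Ighm, the constant region of IgM, read 8.6, 8.3 and 8.31 in WT and 6.87, 7.11 and 7.17 in DM (-1.35). The B cell marker sums given above were slightly lower in DM as well, but those markers were weak. The part of B cells in the difference of Ighm was not tested. Mgl2, a C-type lectin of macrophages and dendritic cells, read 8.66, 8.42 and 8.11 in WT and 7.12, 6.87 and 7.25 in DM (-1.32). Thy1, a GPI-anchored glycoprotein, read 9.86, 10.36 and 9.76 in WT and 8.59, 8.83 and 8.73 in DM (-1.27).

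The other surface genes were lower by smaller amounts. Ncam1, a neural cell adhesion molecule, differed by -1.26. Ly6g, a surface antigen of mouse neutrophils, read 8.51, 8.84 and 9.22 in WT and 7.54, 7.93 and 8.18 in DM (-0.97). Trem3, an activating receptor of myeloid cells, read 8.89, 9.05 and 8.95 in WT and 7.79, 8.24 and 8.29 in DM (-0.86). Celsr1, an atypical cadherin, differed by -0.89 and Amotl2, an angiomotin family scaffold, by -0.85. Ly6g belongs to a gene family with near-identical copies, so its level is uncertain.

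Secreted signals and extracellular proteins were 8 genes. F13a1, the catalytic subunit of coagulation factor XIII made by monocytes and megakaryocytes, read 8.96, 9.35 and 8.88 in WT and 7.55, 7.5 and 7.65 in DM (-1.49). Vegfa, the vascular growth factor, read 9.88, 9.78 and 9.44 in WT and 8.46, 8.39 and 8.61 in DM (-1.22), and Igfbp4, which binds insulin-like growth factors, read 11.08, 11.04 and 10.7 in WT and 9.79, 9.68 and 9.75 in DM (-1.2). In these 3 genes the DM libraries lay close together, with SDs of 0.0794, 0.11 and 0.0549. Ccl24, the chemokine eotaxin-2, read 7.12, 7.26 and 7.63 in WT and 6.28, 5.92 and 6.47 in DM (-1.11). Stc2, a stanniocalcin, read 6.63, 6.65 and 6.53 in WT and 5.57, 5.49 and 5.55 in DM (-1.06). Nrg2, a neuregulin, differed by -0.93, Olfml2b, an olfactomedin-like protein, by -0.86, and Dmkn, dermokine, by -0.82.

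Intracellular signalling and cytoskeletal genes were the most numerous role, with 17 genes and a median of -1.11. Plppr3 (chr10:79860475-79874634, minus strand), a phospholipid phosphatase-related membrane protein, read 9.4, 9.13 and 8.71 in WT and 7.06, 7.1 and 7.28 in DM (-1.94). Rflnb, a filamin-binding refilin, read 9.96, 10.22 and 10.33 in WT and 8.63, 8.84 and 9.07 in DM (-1.32), and Rhou, a small GTPase, read 8.69, 8.77 and 8.95 in WT and 7.17, 7.67 and 7.85 in DM (-1.24). The DM libraries of Plppr3 had an SD of 0.117 against 0.347 in WT. Nhsl2 read 11.5, 11.8 and 11.75 in WT and 10.23, 10.51 and 10.75 in DM (-1.19). Rasgrp2, the Rap1 exchange factor of platelets and neutrophils, read 10.11, 10.25 and 10.13 in WT and 8.77, 9.04 and 9.13 in DM (-1.18). Palm, the membrane-anchored paralemmin, read 10.39, 10.34 and 10.19 in WT and 9.06, 9.01 and 9.33 in DM (-1.17). The other 11 ran from -1.14 to -0.86. They were Ttc21a, the kinase Stk26, the T cell signalling suppressor Ubash3a, the diacylglycerol kinase Dgkg, Fam107b, Septin1, the GTPase-activating protein Arhgap19, Sh2d5, Ndrg2, the inositol phosphatase Inpp5j and the hair keratin Krt83.

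Other enzymes and transporters were 13 genes and included the one with the largest difference. Arg1 (ENSMUSG00000019987.9, chr10:24915221-24927484, minus strand), arginase 1, read 9.48, 9.32 and 10.14 in WT and 7.7, 6.8 and 7.68 in DM, a difference of -2.25 or 4.77-fold. The means of Arg1 were 9.65 ± 0.434 and 7.39 ± 0.512 (SD, n = 3 each), WT replicate 3 was its highest WT library, and DM replicate 2 its lowest DM library. Nos2, the inducible nitric oxide synthase that competes with arginase for arginine, read 8.5, 8.83 and 8.5 in WT and 7.48, 7.57 and 8.01 in DM (-0.93). Gatm, the arginine:glycine amidinotransferase of creatine synthesis, read 9.54, 9.71 and 9.55 in WT and 8, 8.12 and 8.26 in DM (-1.48). Arg1, Nos2 and Gatm all use arginine, and each was among the 93, a grouping made after the values were seen. Arg2, arginase 2, was not lower, with means of 9.21 in WT and 9.56 in DM (0.36, limma adjusted p = 0.0526). Abca13, an ABC transporter, read 11.45, 11.84 and 11.86 in WT and 10.14, 10.61 and 10.66 in DM (-1.25). Ak4, a mitochondrial adenylate kinase, read 8.34, 8.19 and 7.76 in WT and 6.78, 6.96 and 6.93 in DM (-1.2), and Bcat1, the cytosolic branched-chain aminotransferase, read 7.29, 6.86 and 6.53 in WT and 5.7, 5.75 and 5.75 in DM (-1.16). Bcat1 had a wide WT spread, with replicate 3 lowest, and an SD of 0.0285 in DM. Egln3, a prolyl hydroxylase that marks HIF for degradation, read 10.91, 10.92 and 10.77 in WT and 9.67, 9.87 and 9.96 in DM (-1.03). The other 6 were Mgam, Glt1d1, Slco4c1, Slc28a2, Fmo5 and Pxylp1, from -1.15 to -0.83.

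Lipid and sterol metabolism was represented by 8 genes with smaller differences, a median of -0.93. Mogat2 and Dgat2, which make diacylglycerol and triacylglycerol in succession, read 9.04, 9.04 and 9.12 in WT and 7.8, 8 and 8.17 in DM (-1.08) and 10.15, 10.53 and 10.5 in WT and 9.18, 9.4 and 9.79 in DM (-0.94). Fdps, farnesyl diphosphate synthase of the mevalonate pathway, read 7.77, 7.87 and 7.62 in WT and 6.61, 6.81 and 6.8 in DM (-1.02). Fads2, the delta-6 desaturase, read 11.75, 11.6 and 11.45 in WT and 10.67, 10.42 and 10.84 in DM (-0.95), and Scd1, the stearoyl-CoA desaturase, read 11.59, 11.36 and 11.32 in WT and 10.48, 10.33 and 10.86 in DM (-0.87). The DM libraries of all 5 lay under the WT libraries by 0.36 or more. Akr1c18, a progesterone-reducing aldo-keto reductase, read 8.87, 9.64 and 9.81 in WT and 8.78, 8.39 and 8.38 in DM (-0.93), with WT replicate 1 only 0.1 above the highest DM library. Far2, a fatty acyl-CoA reductase, differed by -0.87 and G0s2, the inhibitor of the lipase ATGL, by -0.8.

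The last 9 genes were noncoding or were not placed in any of the other roles. BC035044 read 8.44, 8.29 and 7.72 in WT and 6.47, 6.45 and 6.69 in DM (-1.62), and the lincRNA F730016J06Rik read 9.29, 9.51 and 9.59 in WT and 7.59, 8.14 and 8.34 in DM (-1.44). Gm11505 read 6.77, 6.61 and 6.03 in WT and 5.5, 5.39 and 5.4 in DM (-1.04) and lies opposite Mpo over 5361 bp. Ifitm6, an interferon-induced transmembrane protein family gene, read 9.78, 10.37 and 10.54 in WT and 8.62, 9.39 and 9.65 in DM (-1.01), and it too has close copies. The remaining 5 were 1700020L24Rik, Reep6, Ifit1bl2, the autophagy gene Atg9b and Gm8113, from -1 to -0.81.

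The libraries of a group were not equally far apart in these genes. In 41 of the 93 (44.1%), replicate 1 was the lowest library in both WT and DM, against 13% of all 18766 genes, and Cstdc5, Cebpe, Itgb2l, Camp, Cd177 and Ngp were among them. DM replicate 1 was the lowest DM library in 60 of the 93 (64.5%), against 35.1% over all genes. WT replicate 3 was the highest WT library in 39 and the lowest in 40, against 31.6% and 47.5% over all genes. The genes with WT replicate 3 farthest under replicate 1 were Bcat1 (-0.76), Gm11505 (-0.74), BC035044 (-0.72), Plppr3 (-0.69), Prss57 (-0.62) and Nkg7 (-0.59). At the other end were Ltf (1.11), Akr1c18 (0.94), Ifitm6 (0.77), Ngp (0.74), S100a9 (0.74) and Csta3 (0.73). In host defence genes WT replicate 3 exceeded replicate 1 in 10 of 15, with a median of 0.45. The median SD was 0.192 in WT and 0.188 in DM for the 93 genes, against 0.0889 and 0.0624 over all genes. The 2 sets were not matched for level. The lowest mean among the 93 was 5.78, while all genes reached down to 3, where rlog shrinks differences between libraries.

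**Figure D3:**
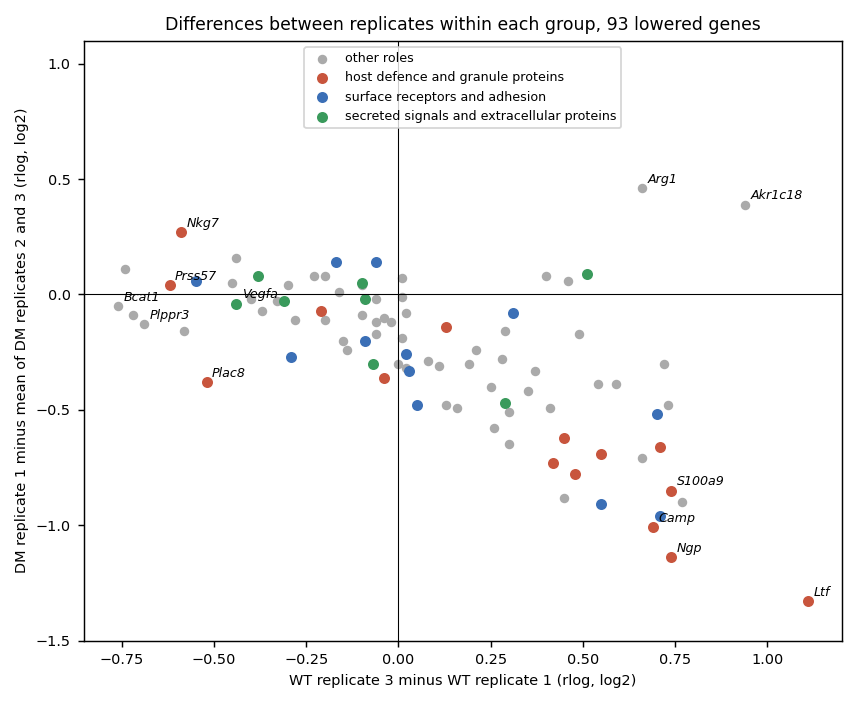
For each of the 93 genes, the rlog difference of WT replicate 3 from WT replicate 1 (horizontal, log2) against the difference of DM replicate 1 from the mean of DM replicates 2 and 3 (vertical, log2). Ltf sits at 1.11 and -1.33 and Ngp at 0.74 and -1.14, whereas Prss57 and Nkg7 sit left of 0 with DM differences of 0.04 and 0.27.

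Several of the genes stood close together in the genome, a feature the choice did not use. There were 6 pairs within 100 kb of each other, which held 9 of the 93 genes. How many such pairs other sets of 93 genes would hold was not counted. On chromosome 10, Prss57 and Palm were 2.6 kb apart and Palm and Plppr3 39.6 kb apart, in the block that also holds the set-aside genes Prtn3 (-3.37) and Elane (-3.96). Between and around these, Misp (-0.12, adjusted p = 0.203) and Ptbp1 (-0.09, adjusted p = 0.521) did not pass the limma test. Fstl3 (-0.32, adjusted p = 0.0196), R3hdm4 (-0.47, adjusted p = 0.0114), Kiss1r (-0.29, adjusted p = 0.0215) and Cnn2 (-0.42, adjusted p = 0.00799) passed it. The Fstl3 call was lost when WT replicate 1, WT replicate 3, DM replicate 1 or DM replicate 2 was left out, and the Kiss1r call when any one DM library was.

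The stefin cluster on chromosome 16 held Csta3, Cstdc6 and Cstdc5. Around them the set-aside Stfa1 differed by -2.8 and Stfa2 by -1.31. Cstdc4 fell by 0.75 (limma adjusted p = 0.0394), a call lost without any one of WT replicates 2 and 3 and DM replicates 1 and 2. Csta2 (-0.3, adjusted p = 0.315) and Stfa3 (-0.7, adjusted p = 0.0791) did not pass. S100a8 and S100a9 were 22.6 kb apart and Dgat2 and Mogat2 36.4 kb.

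**Figure D4:**
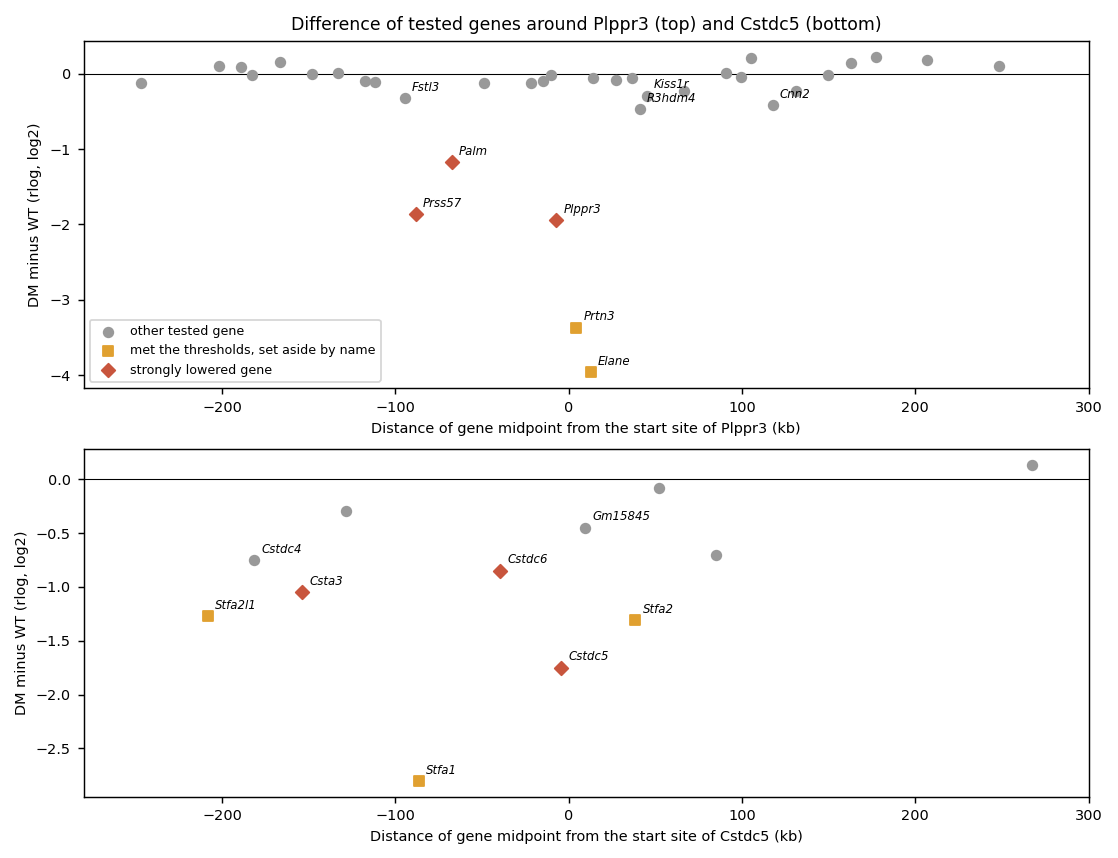
Difference between the DM and WT mean rlog (log2) by the distance in kb of a gene's midpoint from the start site of Plppr3 (top) and of Cstdc5 (bottom), with the described genes as red diamonds and set-aside genes as orange squares. Near Plppr3 the low values are those of Prss57, Palm, Plppr3, Prtn3 and Elane, with Misp at -0.12 and Ptbp1 at -0.09 between them.

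Some of the genes overlap another transcript on the opposite strand, and whether the counting used strand is not given in the sources used here. Without strand, reads of such a pair cannot be told apart. Plppr3 overlaps Prtn3 by 159 bp, Gm11505 overlaps Mpo (-4.23) by 5361 bp, and BC035044 overlaps Clec2i by 3539 bp. Clec2i fell by 0.78 (SE 0.111, limma adjusted p = 0.00352). Other overlaps joined Prss57 to Fstl3 (1157 bp), Gfi1 to A430072P03Rik (880 bp, -0.38) and Slco4c1 to Panct2 (1046 bp, -0.48). Ttc21a overlaps Cx3cr1 over 30188 bp, and Cx3cr1 differed by -0.05.

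Genes near the 93 but not among them were compared by the limma test, which called 884 of 18766 genes lower in DM (4.71%) and 1727 higher (9.2%). After quantile normalization the split was 1292 lower and 1362 higher. Leaving out DM replicate 2 gave 521 lower and 598 higher calls, leaving out WT replicate 1 gave 570 and 615, and leaving out DM replicate 3 gave 586 and 951. With WT replicate 3 left out, 1073 were higher. Of 419 tested genes within 100 kb, 49 were lower (11.7%) and 28 higher (6.68%), with a median difference of -0.06. The 6 with the largest differences were the set-aside Mpo, Elane, Prtn3, Stfa1, Fcnb and Epx. Without the 9 set-aside genes, 40 of 410 were lower (9.76%) and 28 higher (6.83%). Neighbours that overlap one of the 93, such as Clec2i, Panct2, Gm15845 and A430072P03Rik, were kept in these counts. If strand was not used, reads of such a neighbour and of the member cannot be told apart. With DM replicate 2 left out, 28 of the 419 were lower and 11 higher. The higher count was also 11 when WT replicate 1 was omitted, 15 when DM replicate 3 was and 17 when WT replicate 3 was. Among the rest, chosen here after their values were seen, Hmgn2, a nucleosome-binding protein 34680 bp from Lin28a, fell by 0.75 (SE 0.0687, limma adjusted p = 0.000319), and Scd2, a paralogue of Scd1, fell by 0.69 (SE 0.12, limma adjusted p = 0.00729). Slc39a2, a zinc transporter, rose by 0.93 (SE 0.159, limma adjusted p = 0.007), and Trem2, a lipid-sensing receptor of macrophages, rose by 0.89 (SE 0.149, limma adjusted p = 0.00638).

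For 7 gene lists from the biology of these cells, the genes outside the 93 were then read. Together their 182 remaining genes held 51 lower calls (28%) and 19 higher calls (10.4%), against 4.71% and 9.2% of all genes. Without genes set aside, 42 of 173 were lower (24.3%) and 19 higher (11%). Cell cycle genes held 23 of these 42 lower calls, so the pooled share does not describe each list. The lists were assembled with earlier results of these data known, so their shares are a description. The higher count was 7 of 182 when either WT replicate 1 or DM replicate 2 was omitted, 11 when DM replicate 3 was and 29 when WT replicate 2 was.

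The primary granule and neutrophil progenitor list gave 5 of its 28 tested genes to the 93. Of the other 23, 9 were lower and 1 higher, and 5 of the 9 were set aside. The 4 largest were Mpo (-4.23), Elane (-3.96), Prtn3 (-3.37) and Ms4a3 (-2.7), all set aside. Chosen after their values were seen, the other 4 lower genes were Hp, haptoglobin (-0.8), the inhibitory lectin Clec12a (-0.69), the granule protease cathepsin G, Ctsg (-0.63), and the granule-trafficking GTPase Rab27a (-0.61). The call of Ctsg was lost in 4 of the 6 fits that left out a library (WT replicate 1 or 2, DM replicate 2 or 3), and that of Hp when DM replicate 2 was omitted. Their limma adjusted p were 0.0143 for Hp, 0.00925 for Clec12a, 0.032 for Ctsg and 0.000687 for Rab27a. The higher count of this list ran from 0 to 4 when single libraries were left out, the 4 without WT replicate 2.

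The specific and gelatinase granule list gave 9 of its 28 tested genes to the 93, and the other 19 were mixed, with 5 lower and 4 higher. Stfa2l1 (-1.27), 1 of the 5, was set aside, which leaves 4 lower and 4 higher. Retnlg, a resistin-like protein of mature neutrophils, fell by 0.77 (SE 0.114, limma adjusted p = 0.00418). Lyz2, lysozyme of neutrophils and macrophages, rose by 0.86 (SE 0.193, limma adjusted p = 0.0176), and Wfdc21 rose by 0.57 (SE 0.117, limma adjusted p = 0.0127). Both calls were lost when WT replicate 1 or DM replicate 2 was omitted, that of Lyz2 also with WT replicate 3 left out and that of Wfdc21 with DM replicate 3 left out. With DM replicate 1 or DM replicate 2 left out, 3 were lower. The higher count was 0 when WT replicate 1 was omitted, 1 when DM replicate 2 was and 8 when WT replicate 2 was.

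Of the receptors of granulocytes and monocytes, Trem3 alone was among the 93, and 11 of the other 29 were higher and 5 lower, with a median difference of 0.21. After quantile normalization 6 were higher and 5 lower, with a median of 0.04. Csf1r, the receptor of the macrophage growth factor, rose by 0.73 (SE 0.109, limma adjusted p = 0.00415). Ccr2, the chemokine receptor of inflammatory monocytes, fell by 0.78 (SE 0.149, limma adjusted p = 0.00975), Il1r2, the decoy receptor of interleukin 1, fell by 0.74 (SE 0.141, limma adjusted p = 0.00975), and Cxcr4, which holds cells in the marrow, fell by 0.73 (SE 0.125, limma adjusted p = 0.00698). The lower count of this list was 3 when any one of WT replicates 2 and 3 and DM replicates 1 and 2 was omitted. Its higher count was 4 when WT replicate 1 or DM replicate 2 or 3 was omitted, and 7 when WT replicate 3 was.

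Eosinophil and basophil genes outside the 93 held 4 lower calls of 24, of which Epx, Prg3 and Prg2 were set aside. Hdc, histidine decarboxylase, was the other, at -0.62 (SE 0.177, limma adjusted p = 0.0457), and its call was lost in 6 of 12 alternative fits. By limma none of these 24 was higher, with 7 lower and 1 higher at an unadjusted p under 0.05. Cell cycle genes gave no member to the 93, and limma called 23 of 32 lower, with a median difference of -0.39 over the 32. Cdc20, an activator of the anaphase-promoting complex, fell by 0.66 (SE 0.0799, limma adjusted p = 0.00166). Plk1, Cdc6 and Aurka fell by 0.61, 0.6 and 0.6, with limma adjusted p of 0.00159, 0.00112 and 0.004. No cell cycle gene was higher by limma. At an unadjusted limma p under 0.05, 27 were lower and 0 higher. When WT replicate 1 or DM replicate 3 was omitted, 15 of 32 were lower.

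Endoplasmic reticulum chaperone and secretory genes gave no member, and limma called 0 of 30 in either direction, with 0 lower and 4 higher at an unadjusted p under 0.05. After quantile normalization 6 of them were called lower, and without WT replicate 2, 3 were called higher. Stem and lymphoid-primed progenitor genes were split, with 5 of 28 lower and 3 higher outside Ighm. Bcl11a, a transcriptional repressor needed for lymphoid development, fell by 0.71 (SE 0.0957, limma adjusted p = 0.00271), and Myb fell by 0.65 (SE 0.133, limma adjusted p = 0.0127), a call lost without DM replicate 2 or 3. Il7r, the interleukin 7 receptor, rose by 0.79 (SE 0.148, limma adjusted p = 0.0094), and Procr, a stem cell surface receptor, rose by 0.73 (SE 0.127, limma adjusted p = 0.00705). Omitting DM replicate 2 or DM replicate 3 left 2 lower calls in this list.

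**Figure D5:**
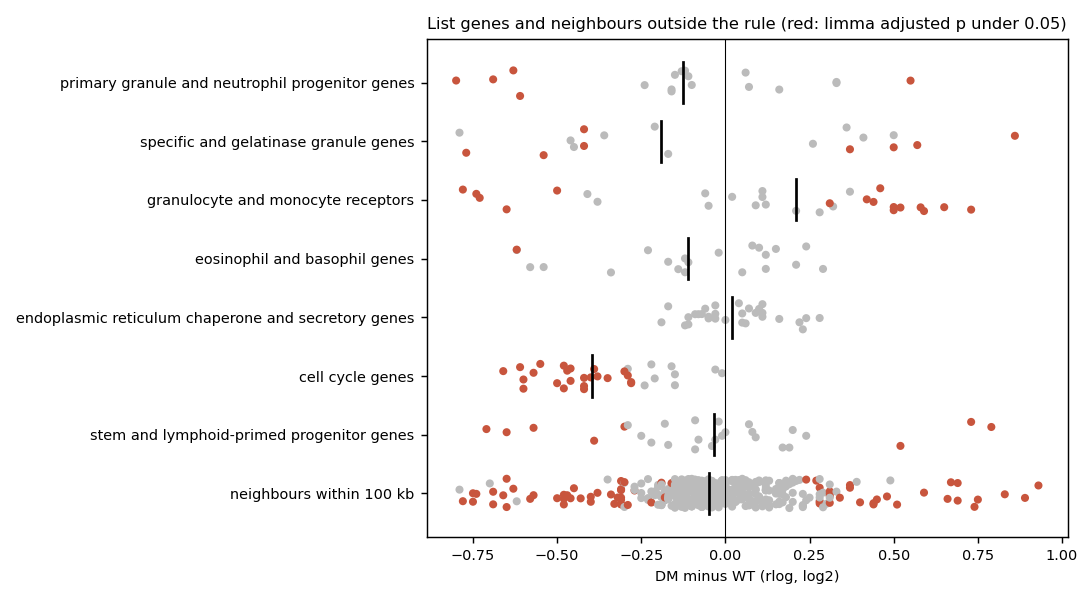
Difference between the DM and WT mean rlog (log2) of each gene of the lists and of the neighbours within 100 kb, without the 93 genes and without set-aside genes, with limma adjusted p under 0.05 in red and the median as a black bar. The cell cycle genes lie below 0, with a median of -0.39, and the receptors of granulocytes and monocytes have a median of 0.21.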

How the data were processed

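RNA-seq of 3 WT and 3 DM libraries was read from the deposited table of rlog values, which are on the log2 scale as the authors made them. Per the submitters' processing notes, cutadapt 2.6, STAR 2.7.3, DESeq2 1.30.0 and the build mm10 were used. The counting tool, annotation and use of strand are not given in the sources used here. The 142699 lines were merged to 55487 genes, and identical lines were counted once. Depth is unknown, so no counting interval was computed.

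Genes with a mean of at least 3 (18766) were fitted with limma 3.58.1 in R 4.3.3 (eBayes with a mean-variance trend, DM against WT, no covariate, 2-sided), adjusted by Benjamini-Hochberg with a threshold of 0.05. It was also run on simulated data with 200 of 18766 genes changed in DM against WT. It called 88 of 92 genes changed by 1 and 108 of 108 changed by 2, on the log2 scale, with 8 false calls. The simulated noise was normal and independent between genes and libraries. These counts therefore do not give the error rate where libraries share deviations, as the libraries here may. The members and all lists were chosen with earlier results of these data known, and members were sorted into 9 roles by hand once their names were known. A single member is not reported by name here, though it is in the counts. Values in every library are given for up to 6 members per role with the largest differences and for regulators, receptors and enzymes described. Outside the members, up to 4 called genes per list and 6 called neighbours with the largest differences were named. Coordinates come from GENCODE M21 (GRCm38, the build also called mm10), in which 87 of the 93 versioned identifiers were found, and no coordinates are printed for the other 6. Promoters come from RefSeq (GRCm38.p6). The alternatives tried were a replicate block, quantile normalization, centring on the median, eBayes with no trend, a minimum mean of 5 or none, a distance of 50 kb, a difference of at most -1, promoter matches on the sense strand alone or against tested genes alone, and each library left out. Figures were drawn with matplotlib 3.10.9.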

Additional observations from a re-analysis of the deposited data

How the results depend on the processing

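The precision of every statement is limited by 3 libraries a group and by an unknown depth. No member changed sign in any of 744 recomputed differences. Wherever a library was left out this was fixed by the choice of genes, since every DM value lay under every WT value. Of the 744 differences, 739 moved by less than 1 SD. Against the reported difference they ranged from 0.65 times, for Ltf at -0.83 without DM replicate 1, to 1.31 times, for Akr1c18 without WT replicate 1.

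Same-numbered WT and DM libraries had deviations from their group means that correlated at 0.491, 0.116 and 0.0412. For differently numbered libraries the values ran from -0.336 (WT replicate 1 with DM replicate 2) to 0.124 (WT replicate 3 with DM replicate 2). The labels give no pairing, so the main fit used none. Whether replicate 1 of WT and of DM share a source was not tested. The replicate block changed the genes called lower from 884 to 1110 and higher from 1727 to 2632, list genes called higher from 19 to 35, and neighbours called higher from 28 to 50.

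When each library was left out in turn, genes called lower ran from 521 to 1152 and higher from 598 to 2323, list genes called lower from 35 to 50 and higher from 7 to 29, and neighbours called lower from 28 to 50 and higher from 11 to 38. Between 81 and 120 genes met the thresholds, against 93. With a difference of at most -1 as the threshold, 54 genes did. Of the 255 neighbours within 50 kb, 41 were called lower and 10 higher, against 49 and 28 of the 419 within 100 kb. With WT replicate 3 and DM replicate 1 left out together, an alternative chosen after seeing the data, 1071 genes were called higher and 87 met the thresholds, 72 of them among the 93. After quantile normalization 1292 genes were lower and 1362 higher, against 884 and 1727, and 111 met the thresholds, 91 of them among the 93. The cause of these changes was not tested.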

Other observations

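Lists of hypoxia-inducible and of sterol and fatty acid synthesis genes were written after the values of the 93 genes had been seen, and their values are given without a test. Of the hypoxia-inducible genes, 28 were measured above the minimum mean and 4 of those were among the 93 (Egln3, Vegfa, Ak4 and Stc2). The other 24 had a median difference of -0.1, and 15 of them had a lower mean in DM, from Bnip3, a mitophagy receptor, at -0.59 to Bhlhe40, a transcriptional repressor, at 0.28.

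Of the sterol and fatty acid synthesis genes, 24 were measured above it and 3 of those were among the 93 (Fdps, Fads2 and Scd1). All 21 others had a lower mean in DM, from Scd2, a stearoyl-CoA desaturase, at -0.69 to Fads1, the delta-5 desaturase, at -0.07, with a median of -0.28. For comparison, 9090 of all 18766 genes had lower DM means, and their overall median difference was 0.01.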
